A study of Rattus norvegicus with 16 samples.

Results

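The 8 genes described here, Mbp, Pmp22, Prx, Mag, Sox10, S100b, Ngfr and Gfap, are genes of Schwann cells and of the myelin they make, and they were taken by name from a table of 17147 genes. All 8 were found there, and all 8 were among the 11658 genes with enough fragments to be tested. They were followed in the supraspinatus muscle of Sprague Dawley rats, a muscle of the rotator cuff, by polyA-selected RNA sequencing. The 16 libraries form 4 groups of 4: unoperated controls (0 days), and muscle taken 10, 30 and 60 days after the supraspinatus had been torn through its full thickness on both sides together with neurectomy of the suprascapular nerve, which supplies it. All operated groups carried both injuries, so tear and neurectomy cannot be told apart, and sex and age of the rats are not given in the sources used here. Whether 2 libraries can come from 1 rat is not stated in the labels, so p-values measure the spread between these libraries.

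Schwann cells are the glia of peripheral nerve, and in muscle they wrap the motor and sensory axons of the intramuscular nerve branches and cap the nerve endings. A myelinating Schwann cell wraps 1 axon in many layers of membrane held together by proteins such as Pmp22 and Mbp, while periaxin (Prx) and Mag act at the outer and inner faces of the sheath. When the axon is cut and degenerates, the Schwann cells beyond the cut are known to shut down myelin genes, keep the lineage factor Sox10, and take up a repair state marked by genes such as Ngfr, which encodes the low-affinity p75 neurotrophin receptor, and Gfap, an intermediate filament of glia. They can make myelin again when they meet a regrowing axon.

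The stretch of 250 bases before the start of transcription is shown for 3 of the sheath genes followed below, Prx, Mag and Pmp22. Each had 1 promoter listed, and a motif searched was present in each. Mbp had 2 promoters listed, and no sequence or motif result is given for it. The sequences are from RefSeq on the rat build GRCr8, while the authors' counts were made on build rn5, so the positions belong to GRCr8 alone. Capitals mark the matches. In Prx (chr1:91914171-91914420, plus strand) a CCAAT box is at bases 166 to 170 of the window, 81 bases before the start. In Mag (chr1:95291045-95291294, minus strand) the core ACAAAG, a sequence of the kind bound by SOX factors, is read on the opposite strand to the gene at bases 99 to 104. In Pmp22 (chr10:48294682-48294931, plus strand) a CCAAT box is read on the opposite strand at bases 204 to 208, 43 bases before the start.
Prx: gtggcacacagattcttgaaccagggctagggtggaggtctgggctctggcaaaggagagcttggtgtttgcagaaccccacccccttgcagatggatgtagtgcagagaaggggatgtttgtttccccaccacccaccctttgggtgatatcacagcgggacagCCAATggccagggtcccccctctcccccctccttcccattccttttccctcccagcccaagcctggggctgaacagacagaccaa
Mag: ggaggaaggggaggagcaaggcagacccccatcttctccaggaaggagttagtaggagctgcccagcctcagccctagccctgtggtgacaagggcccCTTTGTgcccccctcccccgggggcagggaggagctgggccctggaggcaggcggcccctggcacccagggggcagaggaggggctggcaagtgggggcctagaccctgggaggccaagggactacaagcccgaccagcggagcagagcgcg
Pmp22: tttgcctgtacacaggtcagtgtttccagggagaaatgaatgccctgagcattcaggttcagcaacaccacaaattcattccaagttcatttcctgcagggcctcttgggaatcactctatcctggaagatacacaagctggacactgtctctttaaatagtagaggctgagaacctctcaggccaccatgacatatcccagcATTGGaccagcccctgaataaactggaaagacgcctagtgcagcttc

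Both strands were searched for a pair of SOX-type cores, written ACAAAG in the longer form or ACAAT in the shorter one, for the CCAAT box and for the TATA box, written TATAAA. The shorter SOX-type core differs from the CCAAT box in its first letter, so their matches can overlap on opposite strands only. Of 33469 rat promoters of this length, 16.3% hold the longer SOX-type core, 30.0% the shorter one, 34.0% the CCAAT box and 12.9% the TATA box, so each match is common and describes the letters alone. The 3 windows differ in base composition: 58.8% of bases are G or C in Prx, 70.0% in Mag and 48.0% in Pmp22. No binding was measured in these samples.

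Levels are given as CPM, the fragments of a gene per 1 M fragments of its library after scaling by TMM factors, which align libraries on the bulk of genes. Differences are log2 fold changes ± SE from 1 edgeR quasi-likelihood fit over all libraries and genes, and a gene was called changed at a Benjamini-Hochberg adjusted p under 0.05 over the 11658 genes. Libraries held 17.2 to 39.9 M (mega) fragments, and those at 60 days, at 17.2 to 22.4 M, were all smaller than every other library. Most of the transcriptome moved after this injury: edgeR called 62.7% of all tested genes at 10 days against 0 days (33.3% higher, 29.4% lower), 64.6% on day 30 (33.7% up, 30.9% down) and 59.0% on day 60 (29.9% up, 29.1% down). A call for 1 of the 8 genes is therefore not unusual by itself, and sizes, directions and order in time are given with each. Groups without overlap in CPM were common too. They were seen for 59% of all tested genes at 10 days against 0 days, 60.2% on day 30 and 50% on day 60. At 60 against 10 days the share was 51.2%. The muscle genes Acta1, Ckm, Myh4 and Tnnt3 stood at 4819 CPM or more in all 16 libraries, and 7 of 7 genes of the muscle response to denervation rose at 10 days, with a median log2 fold change of 5.15. Against 0 days, 7 of these 7 were higher at 30 days (median 4.26), and 5 were higher and 0 lower at 60 days (median 1.73). At 60 against 30 days 7 of 7 were lower (median -2.53).

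At 10 days the 4 sheath genes Mbp, Pmp22, Prx and Mag fell while Ngfr rose, so 5 of the 8 genes were called, and Sox10, S100b and Gfap were not. At 30 days Mbp, Pmp22 and Mag were no longer called against unoperated muscle, Prx was still lower, and Sox10, Ngfr and Gfap were higher. At 60 days Mbp, Pmp22, Sox10, S100b and Ngfr were higher than in unoperated muscle, and none of the 8 was called lower. With library totals in place of TMM factors, which moved the median over all genes up by 0.66, 0.49 and 0.41 on the log2 scale at 10, 30 and 60 days, the split was 3 up and 2 down on day 10, 5 up and 0 down on day 30, and 7 up and 0 down on day 60. In bulk tissue fewer cells of a type and less RNA per cell cannot be told apart, here and in all results below.

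**Figure D1:**
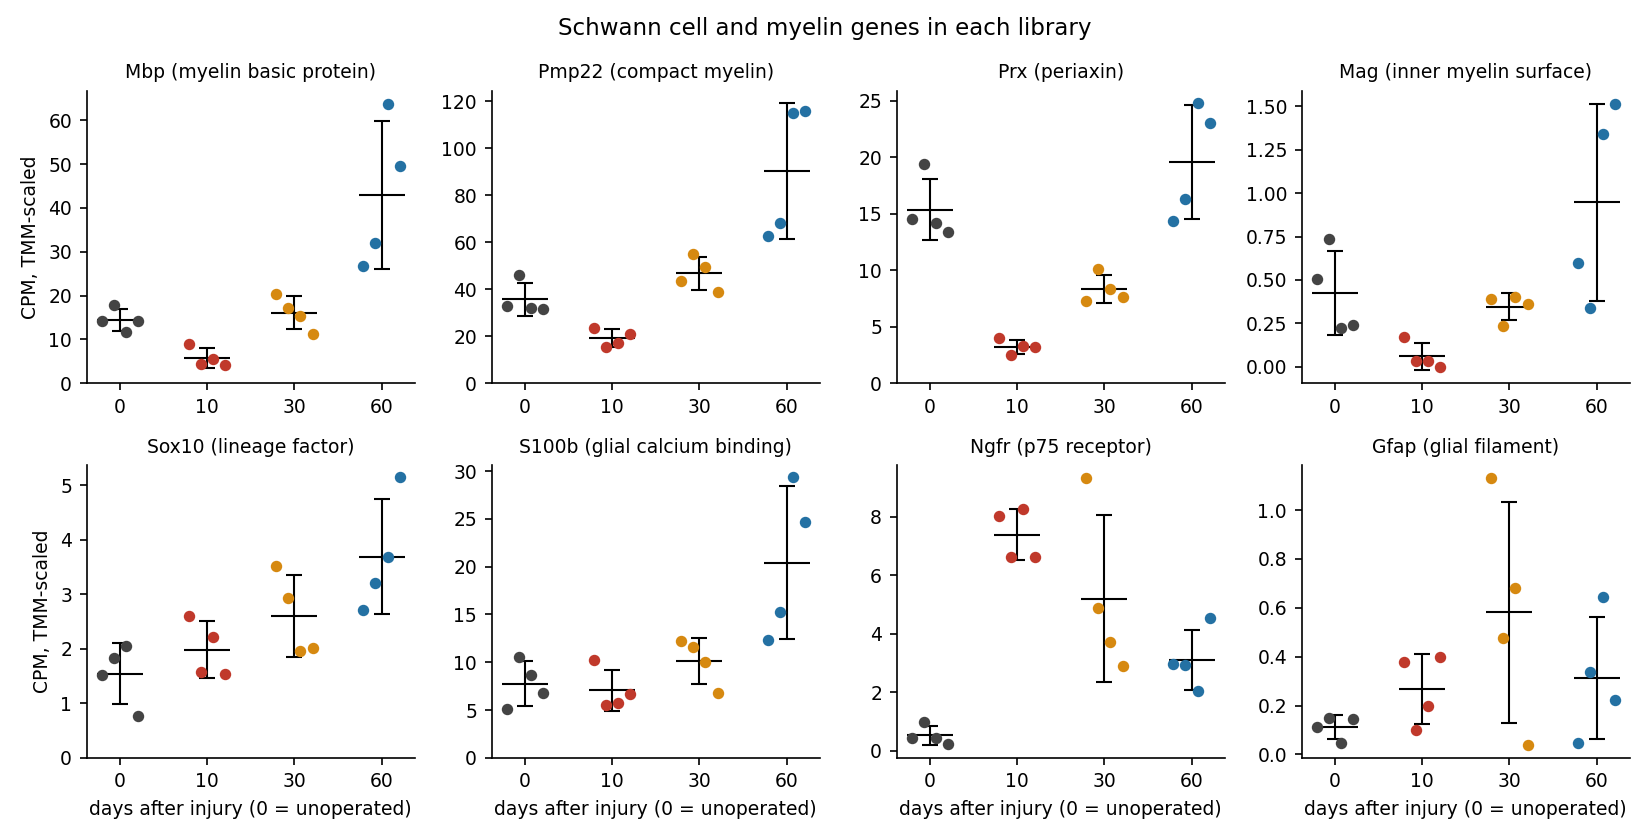
Levels of the 8 genes in CPM (TMM-scaled) in each of the 16 libraries, by days after injury. Points are libraries, and the black bar and whiskers are the mean ± SD of 4 libraries. Mbp, Pmp22, Prx and Mag have their lowest group at 10 days and their highest at 60 days, while Ngfr has its lowest group at 0 days and its highest at 10 days.

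Mbp encodes myelin basic protein, which holds the inner faces of the myelin membrane together. It stood at 14.3, 17.8, 11.6 and 14.1 CPM in the unoperated libraries and at 8.91, 4.43, 5.5 and 4.21 CPM at 10 days. It then stood at 20.4, 17.2, 15.4 and 11.3 CPM at 30 days and at 26.7, 32.1, 63.8 and 49.5 CPM at 60 days. The 10-day libraries all lay below the unoperated ones, the 30-day libraries lay around them, and the 60-day libraries all lay above. The fall at 10 days was 2.51-fold (log2 fold change -1.33 ± 0.29, edgeR adjusted p = 0.000912), and at 60 days the level was 2.96-fold that of unoperated muscle (1.57 ± 0.28, edgeR adjusted p = 0.000214). At 30 days the difference was 0.15 ± 0.28 with a 95% interval from -0.44 to 0.74. With library totals the fall at 10 days was -0.67 and missed the threshold (adjusted p = 0.0541).

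Pmp22, a membrane protein of compact myelin that other cell types also make, followed the same order with smaller steps. Its levels were 32.8, 46.3, 31.9 and 31.8 CPM at 0 days and 23.6, 15.4, 17.3 and 20.8 CPM at 10 days. They were 43.5, 54.9, 49.7 and 38.9 CPM at 30 days and 62.7, 68.3, 115 and 116 CPM at 60 days. The groups at 10 and at 60 days did not overlap the unoperated libraries, and replicate 2 at 0 days stood above its group. Pmp22 fell 1.85-fold at 10 days (-0.89 ± 0.21, edgeR adjusted p = 0.00172) and was 2.54-fold higher at 60 days (1.34 ± 0.21, edgeR adjusted p = 6.39e-05). The fall was not called with library totals (-0.23, adjusted p = 0.335). At 30 days the difference was 0.39 ± 0.21 (edgeR adjusted p = 0.112), and without unoperated replicate 2 it was 0.55 and passed (adjusted p = 0.0366). It also passed with library totals (0.88, edgeR adjusted p = 0.00173) and with upper-quartile factors (0.51, edgeR adjusted p = 0.0434). The same held with the 2 compared groups only (0.38, edgeR adjusted p = 0.0377) and without 60-day replicates 3 and 4 (0.39, edgeR adjusted p = 0.0353).

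Prx encodes periaxin, a scaffold that ties the outer face of the sheath to the basal lamina. It stood at 14.5, 19.4, 14.2 and 13.4 CPM at 0 days and at 4.03, 2.5, 3.26 and 3.17 CPM at 10 days. The levels were 7.3, 10.1, 8.32 and 7.6 CPM at 30 days and 14.4, 16.3, 24.8 and 23 CPM at 60 days. The 10-day and 30-day libraries all lay below the unoperated ones, and the 60-day libraries overlapped them. The fall was 4.74-fold at 10 days (-2.24 ± 0.20, edgeR adjusted p = 5.14e-08) and 1.84-fold at 30 days (-0.88 ± 0.18, edgeR adjusted p = 0.000541), the latter -0.39 with library totals (adjusted p = 0.0708). At 60 days the difference was 0.35 ± 0.18 with a 95% interval from -0.03 to 0.73 (edgeR adjusted p = 0.106). It passed without unoperated replicate 2 (0.50, adjusted p = 0.0318) or 60-day replicate 1 (0.47, adjusted p = 0.0279), and was 0.02 without 60-day replicates 3 and 4.

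Mag, the myelin-associated glycoprotein of the face next to the axon, was the least abundant sheath gene of the 4 by fragments. The unoperated libraries held 9, 20, 5 and 5 fragments of it, the 10-day libraries 6, 1, 1 and 0, the 30-day libraries 11, 10, 10 and 9, and the 60-day libraries 13, 6, 23 and 34. In CPM the groups averaged 0.426 ± 0.243 (SD, n = 4), 0.0600 ± 0.0776, 0.347 ± 0.0750 and 0.948 ± 0.568 in that order. In the 10-day replicate with 0 fragments, 3 counts of its total would be 0.111 CPM. Each 10-day library lay below all unoperated libraries, with a log2 fold change of -2.71 ± 0.72 (edgeR adjusted p = 0.00361) that rests on 8 fragments at 10 days, 6 of them in replicate 1, against 39 at 0 days. Without 10-day replicate 1 it was -4.06, and over the 16 fits that left out 1 library it ran from -4.06 to -2.25, called in each. At 60 days Mag differed from unoperated muscle by 1.13 ± 0.52 (edgeR adjusted p = 0.0712). It passed in 3 of 16 fits that left out 1 library, namely unoperated replicate 2 (1.60) and 60-day replicates 1 (1.30) and 2 (1.39), and was 0.15 without 60-day replicates 3 and 4.

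Among the 10-day libraries, replicate 1 was above the other 3 for Mbp, Pmp22, Prx and Mag. The same was so for Sox10 and S100b, given below, and not for Ngfr or Gfap.

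**Figure D2:**
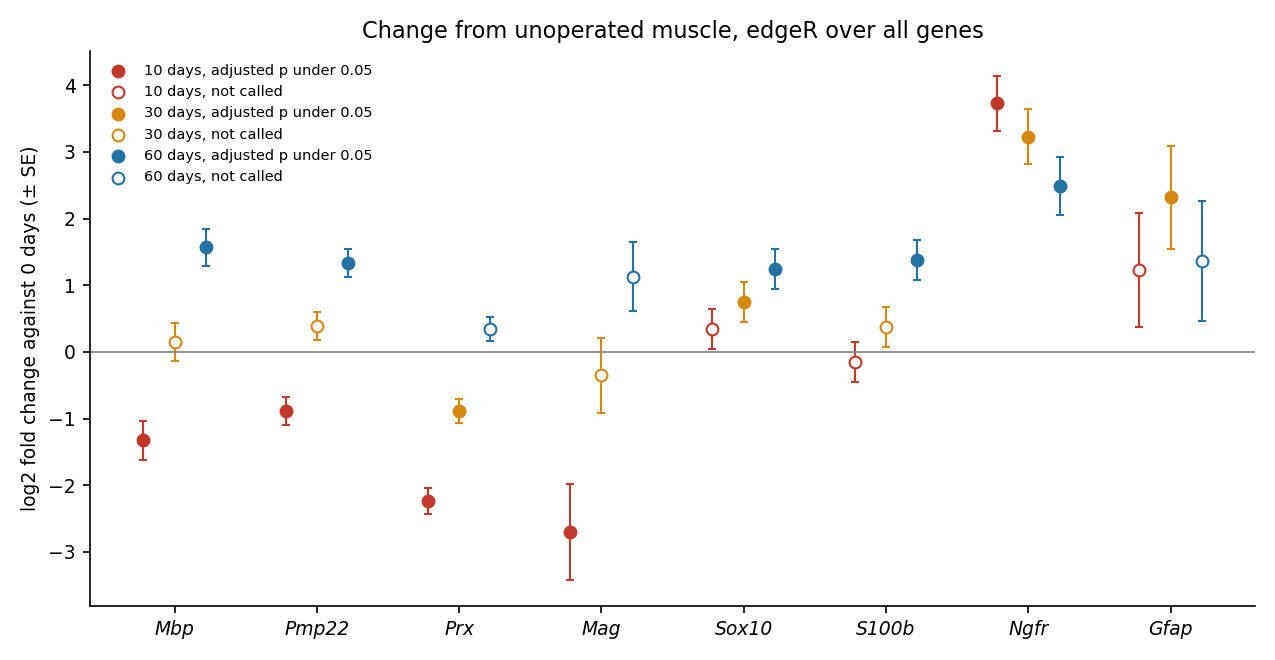
Log2 fold change ± SE of the 8 genes at 10, 30 and 60 days against 0 days, from edgeR. Filled points have an adjusted p under 0.05. At 10 days the 4 sheath genes lie between -2.71 and -0.89 and Ngfr at 3.73, and at 60 days none of the 8 lies below 0.

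A list of 18 sheath genes that includes these 4 had 15 tested members. At 10 days 12 of the 15 fell and 1 rose, with a median log2 fold change of -2.17 beside 0.06 over all tested genes. At 30 days 4 were lower and 3 higher (median -0.25, all genes 0.05), and at 60 days 8 were higher and 0 lower (median 1.06, all genes 0.04). Library totals gave 8 lower and 3 higher at 10 days (median -1.52), turned the 30-day median to 0.24 with 4 higher and 2 lower, and gave 12 higher at 60 days (median 1.47). Without 60-day replicates 3 and 4 the count at 60 days was 4 higher and 0 lower (median 0.46).

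Within that list the largest falls at 10 days were in Cldn19, the claudin that seals the sheath's membrane loops (-3.25 ± 0.31, edgeR adjusted p = 1.6e-07), Ncmap, a small membrane protein of non-compact myelin (-3.12 ± 0.70, adjusted p = 0.000927), and Drp2, a dystrophin-related partner of periaxin (-3.00 ± 0.40, adjusted p = 6.36e-06). Their fragments were few: Cldn19 had 137 at 0 days and 20 at 10 days, Ncmap 45 and 7, and Drp2 161 and 29. At 30 days the largest falls among called genes without overlap were in Prx, Cldn19 and Drp2, at -0.88, -1.44 and -2.28 in that order. Cnp, an enzyme of myelinating glia that other cells also make, went the other way at 10 days (1.96 ± 0.18, edgeR adjusted p = 1.08e-07) and was still higher at 60 days (1.39 ± 0.18). Of the 8 tested regulators of myelination 2 rose and 3 fell at 10 days (median -0.14, 0.52 with library totals). Egr2, the factor that drives myelin genes, differed by -0.21 ± 0.44 at 10 days and 0.78 ± 0.43 at 60 days, and edgeR called neither (adjusted p = 0.686 and 0.133). Beside Sox10, given below, called changes with no overlap among the regulators included those of Zeb2, a repressor that acts in myelinating Schwann cells (0.88 at 10 days), of Tead1, a transcription factor of the Hippo pathway (-1.95 at 30 days and -1.71 at 60 days), and of Nab2, a co-factor of Egr2 (0.74 at 30 days and 0.70 at 60 days).

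**Figure D3:**
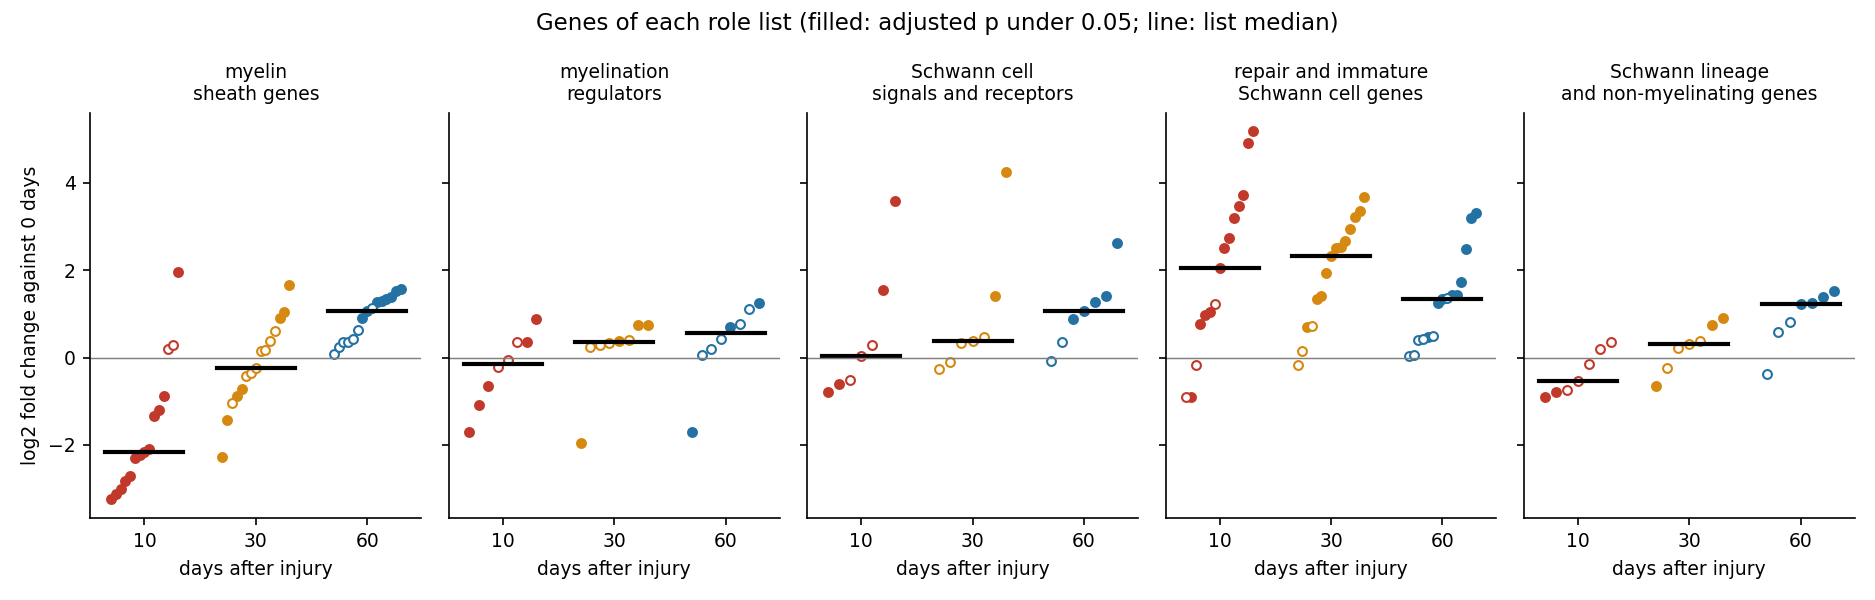
Log2 fold change against 0 days of each tested gene in 5 role lists at 10, 30 and 60 days. Filled points have an edgeR adjusted p under 0.05, and the line is the list's median. The median of the sheath list moves from -2.17 to -0.25 to 1.06, and that of the repair list is 2.05, 2.32 and 1.33.

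Sox10 is the transcription factor that Schwann cells need at every stage of their lineage. It stood at 1.52, 1.83, 2.05 and 0.766 CPM at 0 days and at 2.61, 1.58, 2.21 and 1.54 CPM at 10 days. It stood at 3.51, 2.94, 1.96 and 2.01 CPM at 30 days and at 2.72, 3.2, 3.68 and 5.15 CPM at 60 days. The groups at 0, 10 and 30 days overlapped, and all 60-day libraries lay above the unoperated ones. At 10 days, when the sheath genes were lowest, Sox10 differed by 0.35 ± 0.30 with a 95% interval from -0.28 to 0.99 (edgeR adjusted p = 0.317), and with library totals by 1.01 (adjusted p = 0.0076). At 60 days it was 2.38-fold higher (1.25 ± 0.30, edgeR adjusted p = 0.00192). The rise at 30 days (0.75 ± 0.30, edgeR adjusted p = 0.0349) was lost when unoperated replicate 1 (0.75, adjusted p = 0.0601), unoperated replicate 4 (0.54, 0.104), 30-day replicate 1 (0.58, 0.115) or 30-day replicate 2 (0.68, 0.0806) was left out.

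S100b, a calcium-binding protein used as a marker of glia and also made by adipocytes, stood at 5.06, 10.6, 8.65 and 6.75 CPM at 0 days and 10.2, 5.55, 5.73 and 6.7 CPM at 10 days. It stood at 12.2, 11.6, 10 and 6.83 CPM at 30 days and at 12.3, 15.3, 29.4 and 24.7 CPM at 60 days. The first 3 groups overlapped, and each 60-day library lay above every unoperated library. The 60-day level was 2.61-fold that of unoperated muscle (1.38 ± 0.30, edgeR adjusted p = 0.000961). At 10 days the difference was -0.15 ± 0.30 (edgeR adjusted p = 0.678), and the sign turned with library totals. At 30 days it was 0.38 ± 0.30 (edgeR adjusted p = 0.269), and it passed with library totals (0.88, adjusted p = 0.0157).

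Adipocyte genes moved in the same libraries as S100b at 60 days. Of 9 adipocyte markers 6 rose at 60 days against 0 days (median 1.37), and 0 rose and 2 fell at 10 and at 30 days. Without 60-day replicates 3 and 4, 2 of the 9 rose (median 0.84). Adipoq, which encodes the adipocyte hormone adiponectin, stood at 33.4, 30.3, 66.4 and 59.6 CPM in the 60-day libraries, with replicates 3 and 4 highest as for S100b, and at 3.54, 11.2, 19.6 and 11.1 CPM in the unoperated ones. The summed level of the 9 markers was 698 to 886 CPM at 0 days, 411 to 555 at 10 days, 427 to 547 at 30 days and 650 to 945 at 60 days. Most of that sum was Lpl and Fabp4, the 2 that fell at 10 and at 30 days. They averaged 543 and 181 CPM at 0 days and 429 and 227 CPM at 60 days. The 6 that rose at 60 days were Plin1, Adipoq, Cidec, Lep, Retn and Cfd, so the sum says little about these. The part of adipocyte genes in the rise of S100b was not tested. Of 7 tested genes of the Schwann lineage and of cells that do not myelinate, 0 rose and 2 fell at 10 days (median -0.53, 0.13 with library totals), 2 rose and 1 fell at 30 days and 4 rose at 60 days (median 1.22). Among the 4 were S100b, Sox10 and Scn7a, a sodium channel subunit found in Schwann cells that had fallen by 0.79 ± 0.25 at 10 days. Ednrb, the endothelin receptor B, fell by 0.90 ± 0.22 at 10 days and by 0.65 ± 0.22 at 30 days. With library totals neither Scn7a (-0.13) nor Ednrb (-0.23) was called at 10 days, nor was Ednrb at 30 days (-0.16).

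Ngfr had the largest rise of the 8 against unoperated muscle at each of the 3 times. The unoperated libraries stood at 0.45, 0.99, 0.446 and 0.239 CPM (8, 27, 10 and 5 fragments), and the 10-day libraries at 8.04, 6.64, 8.27 and 6.64 CPM. At 30 days it stood at 9.32, 4.89, 3.72 and 2.89 CPM, and at 60 days at 2.95, 2.92, 2.05 and 4.53 CPM. All 12 operated libraries lay above all 4 unoperated ones, and the 10-day libraries lay above all 60-day libraries. The rise was 13.2-fold at 10 days (3.73 ± 0.41, edgeR adjusted p = 9.31e-07), 9.35-fold at 30 days (3.23 ± 0.41, edgeR adjusted p = 5.89e-06) and 5.62-fold at 60 days (2.49 ± 0.43, edgeR adjusted p = 0.000142). It was called under every alternative scaling, with DESeq2 and in all 16 fits that left out 1 library, at each of the 3 times.

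Gfap was near the limit of detection. It gave 2, 4, 1 and 3 fragments in the unoperated libraries, 13, 3, 6 and 13 at 10 days, 32, 20, 17 and 1 at 30 days, and 1, 6, 11 and 5 at 60 days. In CPM the 30-day libraries ran from 0.0402 to 1.13 and so overlapped the unoperated range from 0.0446 to 0.147. Means were 0.112 ± 0.0474 CPM (SD, n = 4) on day 0, 0.268 ± 0.145 on day 10, 0.582 ± 0.454 on day 30 and 0.312 ± 0.251 on day 60. The rise at 30 days passed (2.32 ± 0.77, edgeR adjusted p = 0.015) with overlapping groups, and was lost without 30-day replicate 1 (1.8, adjusted p = 0.0602). The differences at 10 days (1.23 ± 0.85, edgeR adjusted p = 0.217) and 60 days (1.36 ± 0.90, edgeR adjusted p = 0.203) did not pass. At 10 days library totals gave 1.87 with an adjusted p of 0.0494.

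Other genes known from repair and immature Schwann cells, many of which muscle and other cells also use, mostly rose. Of the 15 tested in a list of 18 that holds Ngfr and Gfap, 11 rose and 1 fell at 10 days (median 2.05), 12 rose at 30 days (median 2.32) and 9 rose at 60 days (median 1.33). Artn, a growth factor of the GDNF family, was 5.18 ± 0.28 higher at 10 days on the log2 scale (edgeR adjusted p = 4.79e-10), and Ncam1, an adhesion molecule that denervated muscle fibres also make, 4.91 ± 0.29. Sox2, a factor of immature glia, rose by 3.35 ± 0.74 at 30 days (edgeR adjusted p = 0.0009). Counts were low at 0 days, with 6 fragments of Sox2 and 13 of Artn over all unoperated libraries. Sox2 had 88 fragments at 30 days, and Artn 701 at 10 days. Jun, the factor that drives the repair state and that many cells express, rose by 0.77 ± 0.17 at 10 days and differed by 0.05 ± 0.17 at 60 days (edgeR adjusted p = 0.00094 and 0.798). L1cam, an adhesion molecule of axons and Schwann cells, fell by 0.90 ± 0.20 at 10 days (-0.25 and not called with library totals). Without 60-day replicates 3 and 4 the count at 60 days was 6 higher and 0 lower.

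Receptors and ligands around these genes split. Erbb3, the receptor through which axonal neuregulin reaches Schwann cells, rose by 1.55 ± 0.37, 1.40 ± 0.37 and 1.41 ± 0.38 at 10, 30 and 60 days (edgeR adjusted p = 0.00155, 0.00344 and 0.00435). Its partner Erbb2, which muscle also makes, rose by 3.59 ± 0.26, 4.25 ± 0.26 and 2.63 ± 0.26. Itga6 and Itgb4, the subunits of a laminin receptor of Schwann and perineurial cells, fell by 0.79 ± 0.16 and 0.62 ± 0.25 at 10 days (-0.13 and 0.04 with library totals, neither called), and Itgb4 was 1.28 ± 0.25 higher at 60 days. Among 9 tested ligands and partners of p75, 2 rose and 4 fell at 10 days (median -0.92), 2 rose and 4 fell at 30 days (median -0.42), and 3 rose and 1 fell at 60 days (median 0.42). With library totals these counts were 3 and 1, 4 and 1, and 4 and 1, and the 30-day median turned to 0.07. The neurotrophins Ntf4 and Ntf3 fell by 3.30 ± 0.31 and 1.01 ± 0.23 at 10 days, the latter not called with library totals (-0.36), while Bex1, a cytoplasmic partner of p75, rose by 2.40 ± 0.17. Ntrk3, the receptor for Ntf3, fell by 1.09 ± 0.26 at 30 days (-0.59 and not called with library totals), and Nradd, a relative of p75, rose by 0.92 ± 0.24. Sort1, the co-receptor for immature neurotrophins, rose by 0.40 ± 0.08 at 10 days and fell by 1.00 ± 0.08 at 60 days. Ntrk2, the receptor for Bdnf and Ntf4, fell by 0.55 ± 0.16 at 10 days (0.11 and not called with library totals) and rose by 0.88 ± 0.15 at 60 days.

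Between the operated times the sheath genes rose at each step. From 10 to 30 days edgeR called Mbp (1.48 ± 0.29), Pmp22 (1.28 ± 0.21), Prx (1.36 ± 0.19) and Mag (2.36 ± 0.73) higher, 4 of the 8, beside 47.3% of all tested genes (23.0% higher, 24.3% lower). Without 10-day replicate 1 the value of Mag was 3.71, the highest over the 16 fits that left out 1 library (lowest 1.97). Sox10, S100b, Ngfr and Gfap did not pass in that interval, with Ngfr at -0.50 ± 0.32 (adjusted p = 0.209), and at -0.93 when 30-day replicate 1 was left out (adjusted p = 0.0128). Gfap differed by 1.09 ± 0.62 and passed without 30-day replicate 4 (1.45, adjusted p = 0.0309).

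From 30 to 60 days edgeR called Mbp (1.41 ± 0.28), Pmp22 (0.95 ± 0.21), Prx (1.23 ± 0.18), Mag (1.48 ± 0.52) and S100b (1.00 ± 0.29) higher, 5 of the 8 beside 22.6% of all tested genes (10.3% higher, 12.4% lower). Of these Mbp, Pmp22, Prx and S100b had no overlap between the groups, beside 20.1% of all tested genes. For S100b the gap was narrow, from 12.2 CPM (highest at 30 days) to 12.3 CPM (lowest at 60 days). The call of Mag (adjusted p = 0.0488) was lost in 10 of 16 fits leaving out 1 library, with log2 fold changes from 1.15 to 1.74 over the 16. That of S100b (adjusted p = 0.0215) was lost without 30-day replicate 4 (0.85), 60-day replicate 3 (0.78) or 60-day replicate 4 (0.91). Without 60-day replicates 3 and 4 together 2 of the 8 were called beside 13.8% of all tested genes, Mbp (0.89, edgeR adjusted p = 0.0403) and Prx (0.89, edgeR adjusted p = 0.00656).

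Over the whole interval from 10 to 60 days 7 of the 8 were called, beside 61.1% of all tested genes (29.1% higher, 31.9% lower). Mag rose by 3.84 ± 0.66 on the log2 scale (edgeR adjusted p = 9.52e-05), by 5.18 without 10-day replicate 1 and by 2.86 without 60-day replicates 3 and 4, and was called in both. Mbp rose 7.43-fold (2.89 ± 0.30, edgeR adjusted p = 7.94e-07), Prx 6.04-fold (2.59 ± 0.20, edgeR adjusted p = 3.5e-08) and Pmp22 4.7-fold (2.23 ± 0.22, edgeR adjusted p = 4.8e-07). S100b rose by 1.53 ± 0.29 and Sox10 by 0.89 ± 0.28, the latter lost with library totals (0.65, adjusted p = 0.0682) and without 60-day replicates 3 and 4 (0.59, adjusted p = 0.155). Ngfr fell 2.36-fold (-1.24 ± 0.34, edgeR adjusted p = 0.00477). Gfap did not pass, at 0.13 ± 0.73 with a 95% interval from -1.42 to 1.67. The comparisons with 0 days and with 10 days share libraries, so these values are not independent of those above.

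Ordered from the lowest group mean, Mbp, Pmp22 and S100b ran 10, 0, 30 and 60 days, with 0 and 30 days not told apart for any of the 3, nor 10 and 0 days for S100b. With library totals Pmp22 and S100b were called higher at 30 than at 0 days, as given above. Prx and Mag ran 10, 30, 0 and 60 days, and 0 and 60 days were not told apart for either, nor 30 and 0 days for Mag. Both genes were called higher at 60 than at 0 days with upper-quartile factors (Prx 0.50, edgeR adjusted p = 0.0307, and Mag 1.27, edgeR adjusted p = 0.0443) and with library totals (Prx 0.76, edgeR adjusted p = 0.00179, and Mag 1.54, edgeR adjusted p = 0.0156). Sox10 ran 0, 10, 30 and 60 days with no neighbouring pair called. Ngfr ran 0, 60, 30 and 10 days, with 60 and 30 and 30 and 10 days not told apart. Gfap ran 0, 10, 60 and 30 days with no neighbouring pair called.

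Ratios of a pair of genes within a library do not depend on how libraries are scaled. They are given as log2 of fragments after adding 0.5 to each count, and since fragments are not divided by gene length, the change between times is read and not the level. The log2 ratio of Ngfr to Mbp was -4.86 ± 0.67 (SD, n = 4) on day 0, 0.42 ± 0.38 on day 10, -1.74 ± 0.41 on day 30 and -3.75 ± 0.80 on day 60. It was thus 38.8-fold above unoperated muscle at 10 days, 8.71-fold at 30 days and 2.16-fold at 60 days. All libraries at 10 and 30 days lay above all unoperated ones, and at 60 days the range from -4.94 to -3.17 overlapped the unoperated range from -5.75 to -4.14.

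Set against Sox10, Mbp and Pmp22 were lower at 10 days within each library as well. The log2 ratio of Mbp to Sox10 was 3.28 ± 0.68 (SD, n = 4) on day 0, 1.5 ± 0.19 on day 10, 2.63 ± 0.22 on day 30 and 3.49 ± 0.41 on day 60, and the 10-day libraries, from 1.31 to 1.76, lay below the unoperated ones, from 2.49 to 4.16. The ratio of Pmp22 to Sox10 went from 4.58 ± 0.58 to 3.29 ± 0.33 at 10 days and stood at 4.59 ± 0.25 at 60 days. The ratio of Ngfr to Sox10 was -1.58 ± 0.53 on day 0, 1.92 ± 0.22 on day 10, 0.89 ± 0.38 on day 30 and -0.26 ± 0.41 on day 60, with every operated library above every unoperated one. S100b to Sox10 had mean log2 ratios of 2.35, 1.81, 1.97 and 2.41 in time order and overlapping ranges.

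Prx stayed lower relative to Mbp at all 3 times after injury. Their log2 ratio was 0.09 ± 0.16 (SD, n = 4) on day 0, -0.78 ± 0.30 on day 10, -0.93 ± 0.39 on day 30 and -1.08 ± 0.20 on day 60. The 12 operated libraries, from -1.48 to -0.41, all lay below the 4 unoperated ones, from -0.08 to 0.28. At 60 days Prx was 2.25-fold lower relative to Mbp than in unoperated muscle.

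**Figure D4:**
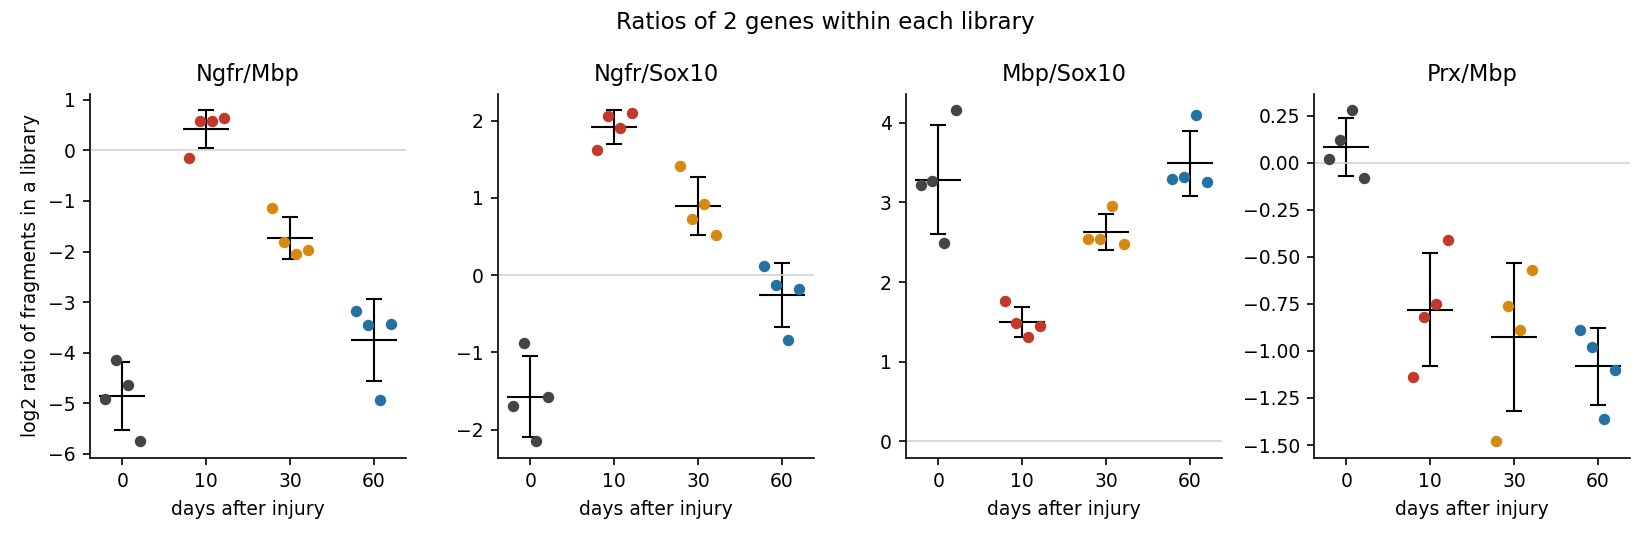
Log2 ratios of fragments of a pair of genes within each library (0.5 added to each count), by days after injury, with mean ± SD of 4 libraries in black. Ngfr to Mbp peaks at 10 days at 0.42, and Prx to Mbp stays below the unoperated range at all 3 later times.

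The 60-day libraries differed among themselves. Replicates 3 and 4 were the highest pair for 6 of the 8 genes, namely Mbp, Pmp22, Prx, Mag, Sox10 and S100b, and not for Ngfr or Gfap. With both left out, the same 5 genes were called higher at 60 days against 0 days: Mbp (1.04), Pmp22 (0.90), Sox10 (0.95), S100b (0.84) and Ngfr (2.42), while 42.6% of all tested genes were called. The same 2 libraries were highest for Adipoq, as given above, and for the summed perineurial markers, at 65.7 and 121 CPM beside 43.3 and 51.1 CPM in replicates 1 and 2. They were also highest for the summed fibroblast markers (2250 and 2850 CPM beside 1610 and 1360), the summed pericyte and smooth muscle markers (301 and 360 CPM beside 198 and 227), the summed macrophage markers (124 and 202 CPM beside 114 and 105) and the summed adipocyte markers (945 and 830 CPM beside 650 and 823). The summed endothelial markers did not follow this order, at 253, 378, 321 and 371 CPM in replicates 1 to 4. Which tissue these 2 samples held more of was not tested.

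**Figure D5:**
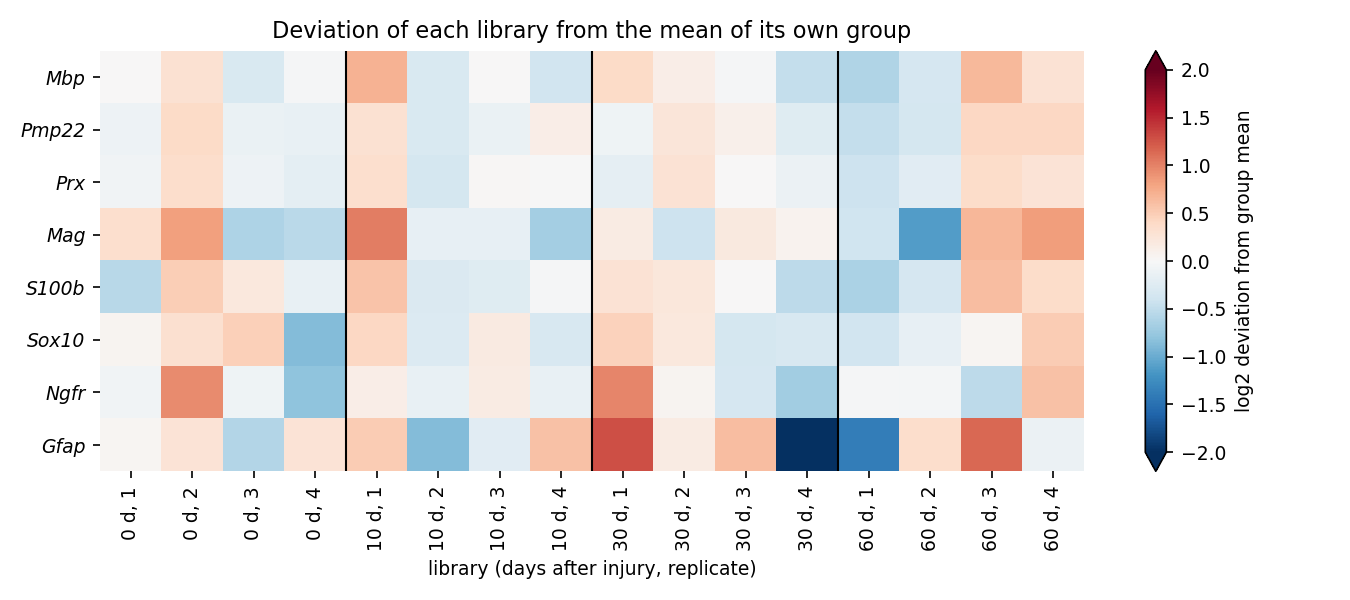
Log2 deviation of each library from the mean of its own group for the 8 genes. Red is above and blue below the group mean. In 60-day replicates 3 and 4 Mbp, Pmp22, Prx, Mag, S100b and Sox10 are at or above their group mean together. Unoperated replicate 2 and 10-day replicate 1 are above the mean of their group for each of the 8 genes.

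Genes of other cells in nerve and muscle moved in these samples too. Of 4 tested perineurial markers 3 fell and 1 rose at 10 days, and 2 rose at 60 days. Of 7 fibroblast markers 4 rose at 10 days and 7 at 30 and at 60 days, and of 7 macrophage markers 6 rose at 10 days and 7 at 30 and at 60 days. Summed macrophage markers ran from 27.9 to 43.3 CPM at 0 days and from 304 to 379 CPM at 10 days, when the sheath genes were lowest. Most of the 10-day sum was 1 gene, Gpnmb, which averaged 6.39 CPM at 0 days, 255 CPM at 10 days and 54 CPM at 30 days. Of 6 endothelial markers 6 fell at 10 days, and of 5 pericyte and smooth muscle markers 4 fell. With library totals 0 of the perineurial, 1 of the endothelial and 2 of the pericyte markers fell at 10 days, and the endothelial median turned from -0.55 to 0.11. Melanocyte markers, which share Sox10 with Schwann cells, summed to at most 0.831 CPM, with Tyr at 0 fragments in every library at 0 and 10 days. Pmel, the 1 melanocyte marker with enough fragments to be tested, rose by 1.35 ± 0.51, 1.47 ± 0.51 and 1.42 ± 0.54 at the 3 times (edgeR adjusted p = 0.0301, 0.0187 and 0.0333), with means of 0.134 CPM at 0 days and 0.355 to 0.377 CPM later. Of 7 tested axon and motor neuron genes 3 rose and 0 fell at 10 days, and Slc18a3, the acetylcholine transporter of motor nerve endings, was at 0 in every library. The part of these cells in the levels of the 8 genes was not tested.

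Over all tested genes, the pattern across the 16 libraries most like that of each member was ranked by Pearson's r of log2 CPM, which is a description since all genes share the libraries and the 4 groups. Mbp was followed most closely by Ugt8 (0.972), Pmp22 (0.967), Scn7a (0.967), Aatk (0.966) and Spon2 (0.955). For Pmp22 the nearest were Ntrk2 (0.979), Plekha4 (0.970), Aoc3 (0.969), Crip1 (0.968) and Mbp (0.967), and for Prx they were Cldn19 (0.988), Icam2 (0.979), Dusp15 (0.970), Tspan2 (0.965) and Egf (0.965). Mag, with few fragments, had among its 5 nearest Nov (0.946), Sfrp5 (0.923), Mbp (0.922) and Cadm3 (0.915). Mbp and Pmp22 thus appear in each other's 5 nearest genes, while Prx has neither among its own.

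Among the 5 nearest to Sox10 were Calhm2 (0.917), Ptprj (0.898), Ctgf (0.883) and Twist2 (0.881), and no sheath gene was among them. The 5 nearest to S100b were Cdo1 (0.928), Slc7a10 (0.927), Adipoq (0.923), Cd9 (0.918) and Tusc5 (0.918). Adipoq of the adipocyte list was thus among them, and none of the other 7 members was. The rest are not on that list. Like Adipoq, each was called higher against 0 days at 60 days only (Slc7a10 2.13, Cdo1 1.78, Tusc5 1.29 and Cd9 0.90). For Ngfr they were Usp33 (0.969), Abcg1 (0.966), Gltp (0.963), Irak4 (0.963) and Ptgs1 (0.962). Gfap, with the fewest fragments, had the weakest likeness, to Eml4 (0.821), Avil (0.792), Arhgef19 (0.787), Ddn (0.780) and Dbf4 (0.769).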

How the data were processed

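The authors deposited 1 table of expected counts, raw fragments per gene symbol with no scaling for depth or length, in which 233 of 17147 genes have a fractional value. Per the submitters' processing notes, bcl2fastq 1.8.4, FastQC, TopHat2 2.0.9, Bowtie2 2.1.0.0, Cufflinks and Cuffdiff 2.1.1 were used with rat build rn5. The annotation, filters and strand setting are not given in the sources used here, so overlapping genes cannot be told apart. The labels' protocols name a miRNeasy kit for RNA and a TruSeq mRNA v2 kit for libraries.

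Groups came from the labelled times, and 0 columns were left unmapped. Counts were rounded, filtered with filterByExpr by group (11658 genes kept, 5489 not tested), scaled with TMM factors and fitted over all 16 libraries with edgeR 4.0.16 (quasi-likelihood F test, robust, no covariate, R 4.3.3). P-values of the 6 comparisons of groups were each adjusted by Benjamini-Hochberg over all tested genes. An SE is the log2 fold change divided by the square root of F, and 95% intervals come from it. Log2 CPM for likeness used a prior count of 2. The floor of a library was taken as 3 counts of its total and covers counting error only, since PCR copies are not independent molecules. The fit was tested on simulated data in which few genes changed, as many up as down. Most genes were called against 0 days in these samples, so that test did not probe the choice of scaling. Promoters were matched by symbol in the RefSeq table of build GRCr8, which held 6 of the 8 genes. Figures used matplotlib 3.10.9.

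The 8 genes and the 16 role and cell type lists (138 genes, 128 found) were chosen with earlier results of these data known. Named beside the 8 were Egr2, Jun and Erbb3, up to 3 of the largest rises and falls with an adjusted p under 0.05 and no overlap in each role list at each time against 0 days, and the 5 genes most like each member. Some genes that this rule names are not reported here. Genes named outside this rule are markers of a cell type or tissue. They are Adipoq, Plin1, Cidec, Lep, Retn, Cfd, Fabp4, Lpl, Gpnmb, Tyr, Pmel, Slc18a3 and the 4 muscle genes. The other settings tried were DESeq2 1.42.0, scaling by library totals, by RLE or by upper-quartile factors, no low-count filter, the 2 compared groups only, a replicate block, the title letter as covariate and leaving out each library. Leaving out 60-day replicates 3 and 4 together was added after seeing the data.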

Additional observations from a re-analysis of the deposited data

Results flagged for a closer look

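Pmp22 stood at 46.3 CPM in replicate 2 of the unoperated group, while the other 3 libraries of that group stood at 31.8 to 32.8 CPM. The gap to the nearest library was 0.93 of the range of the group, above Dixon's critical value for 4 samples at the 95% level. Of 32 groups of 4 libraries examined, 8 genes at 4 times, this was the 1 past that value, and chance passes about 1 in 20. Unoperated replicate 2 was also the highest of its group for Mbp, Prx, Mag, S100b, Ngfr and Gfap, and not for Sox10. For Gfap the step to the next library was small (0.147 beside 0.144 CPM). The same library enters every comparison with 0 days.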

How the results depend on the processing

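No result for the 8 genes changed direction with a call on either side. Of 1193 values over 48 results, 31 lost and 19 gained a call. A further 7 values of Mag and Gfap, 4 of them called as reported, could not be had with the 2 compared groups only, since the gene was then not tested. Library totals lost 5 and gained 6 calls, upper-quartile factors gained 3 (Pmp22 at 30 days, Prx and Mag at 60 days, each against 0 days), and RLE factors and the title letter changed 0. Without 60-day replicates 3 and 4 the count of members called at 60 against 30 days was 2 in place of 5. When each library was left out in turn, that count ran from 3 to 5, and the count at 30 against 0 days from 2 to 5, the lowest without 30-day replicate 1. The column numbers shared by the groups did not pair the libraries: of 24 pairs with the same number 4 had deviations correlated over 0.1 (mean 0.001, range -0.237 to 0.216). With the replicate block the count was 3 at 30 against 0 days (Sox10 lost, adjusted p = 0.0501) and 4 at 60 against 30 days (Mag lost, adjusted p = 0.083), and the other 4 counts were as reported. Mag and Gfap had at most 34 and 32 fragments in a library, and their differences at 60 days have wide intervals (0.03 to 2.22 and -0.54 to 3.26). How much of that width comes from depth was not tested, since libraries of like depth also differed.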
